A study of Mus musculus with 4 samples.

Results

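Chromatin accessibility was examined at 10 mouse genes of the senescence and p53 checkpoint programme in bone-marrow mesenchymal stem cells (MSCs), profiled by ATAC-seq. The genes were the p53 gene Trp53, its inhibitor Mdm2, and the p53 targets Cdkn1a and Ccng1. Cdkn1a is also a cyclin-dependent kinase inhibitor, as are the further members Cdkn2a, Cdkn2b, Cdkn2c and Cdkn1b. The lamin gene Lmnb1 and the chromatin gene Hmga2 completed the set. A peak belonged to a gene if it overlapped the span from 5 kb upstream of the gene to 5 kb past its end in the GENCODE M21 annotation of build mm10. Of the 128055 peaks of the table, 53 met this rule, of which 11 were promoter peaks, lying within 1 kb of the start of a protein-coding transcript of the gene, and 42 were other peaks. The number per gene ranged from 1 (Trp53 and Cdkn1a) to 14 (Hmga2).

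The cells came from mice of 3 to 5 months of age. According to the study's methods, the mice were C57BL6/N, and cells of the bone were sorted as CD45-, Ter-119-, Sca-1+ and CD140a+ after expansion in low oxygen. Both groups carried no other treatment, and each had 2 libraries, hypoxia at 2% O2 and normoxia at 21% O2. The comparison asks how the shift to atmospheric oxygen altered the chromatin at these loci. Library totals recovered from the values lay between 26680936 and 29965523 reads. The study describes its ATAC-seq replicates as biologically independent experiments, while the labels do not say which animals each library came from.

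A cell enters senescence, a stable arrest of division, mainly through the p53 and the Rb routes. Damage stabilises p53, which switches on Cdkn1a (p21) and its own inhibitor Mdm2, an E3 ubiquitin ligase that marks p53 for degradation. In the other route the INK4 inhibitors block the kinases that phosphorylate Rb, so that E2F targets stay silent. Cdkn2a is unusual in that separate promoters make a pair of unrelated proteins, Ink4a (p16), which inhibits Cdk4 and Cdk6, and Arf (p19), which inhibits Mdm2. Loss of lamin B1 is a common sign of senescent cells, and Hmga2, a DNA-bending protein of young stem cells, is known to hold the Ink4a/Arf locus down. High oxygen is a classical trigger of arrest in cultured mouse cells.

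ATAC-seq reads open DNA by the insertion of a transposase, and the deposited signal of a peak is its read number scaled by the library total. Values below are this signal, which is not divided by peak width unless given per kb. Fold changes, positive where normoxia was the higher, are differences of log2(value + 1) after scaling by relative log expression (RLE) size factors. They come with their standard error (SE) from a limma fit over all peaks. A peak was called at a Benjamini-Hochberg false discovery rate (FDR) under 0.01. In bulk cells, a lower signal from fewer open cells and from less opening per cell cannot be told apart.

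The sequences on which the p53 part of the loci rests are the p53 response elements inside the peaks. A response element is a pair of half-sites of 10 bases, each with a C and a G around an A/T-rich centre. The peaks of 9 genes were scanned for it, allowing up to 3 mismatches and a gap of up to 1 base, in the mm10 reference sequence. The consensus reads the same on both strands. Matches with the fewest mismatches in Cdkn1a, Ccng1 and Mdm2 are shown 5′ to 3′ on the strand of the gene, with bases that match the consensus in capitals. Distances run from the 5′ end of the site to the nearest start of a coding transcript.
Cdkn1a, 51 bases upstream of a start, chr17:29090928-29090947, plus strand: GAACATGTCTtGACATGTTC
Ccng1, 170 bases upstream of a start, chr11:40755462-40755481, minus strand: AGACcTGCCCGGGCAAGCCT
Ccng1, 356 bases past a start in intron 1, chr11:40754936-40754955, minus strand: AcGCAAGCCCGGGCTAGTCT
Mdm2, 931 bases upstream of a start, chr10:117711670-117711689, minus strand: GGGCAAtTCCGGGCAAGTCC
Mdm2, intron 6, chr10:117699921-117699940, minus strand: GGACTTGTCCAGcCAAGTTT
Mdm2, past the gene end, chr10:117685731-117685750, minus strand: tGGCTAGTCCAGGCTAGCCT

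Each of these 6 sites had 1 mismatch, as did a site in the Cdkn2b promoter peak and another in the 14000-bp Hmga2 peak. A pair of weaker matches in Mdm2 intron 1 is shown as well, since the p53-responsive start of this gene is known to lie there. They were chosen after the scan was seen, and each had 3 mismatches.
Mdm2, intron 1, chr10:117710105-117710124, minus strand: GGtCAAGTTgGGACAcGTCC
Mdm2, intron 1, chr10:117710067-117710086, minus strand: AGctAAGTCCtGACATGTCT

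Sites with up to 2 mismatches occurred at 2.73 per 10 kb in the Cdkn1a peak, 2.82 in the Ccng1 peaks and 1.42 in the Mdm2 peaks, against 0.903 per 10 kb over 123577 nuclear peaks. These densities rest on only 3 sites in Cdkn1a, 2 in Ccng1 and 5 in Mdm2. The other genes ran from 0 (Cdkn2a and Trp53) to 1.24 (Cdkn1b). With up to 3 mismatches the genes were less apart, at 10.9 for Cdkn1a, 11.3 for Ccng1, 8.50 for Mdm2, 8.55 for Cdkn2a and 7.5 for Trp53, against 6.41 over all nuclear peaks scanned. A match is a sequence only, and whether p53 was bound was not measured.

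Over the 53 peaks, 8 were called lower and 3, adjacent peaks at Mdm2, higher in normoxia by limma, against 4.57% and 1.77% of all peaks. As deposited, both normoxia values lay below both hypoxia values in 40, above them in 5 and overlapped in 8, where 59.5% of all peaks lay below and 6.94% above. All 11 promoter peaks were among the 40, which was the case for 87.7% of all promoter peaks of the series. After RLE scaling, 4 of 11 were called lower and 0 higher by limma, against 17.6% of all promoter peaks called lower and 0.379% called higher. The median log2 fold change was -0.37 over the 11 promoter peaks and -0.28 over all 16371 promoter peaks. The 4 called peaks were those of Cdkn2a at the Ink4a start, Cdkn2b, Cdkn2c and Cdkn1b. The promoter peaks of Trp53, Mdm2, Cdkn1a, Ccng1, Lmnb1, Hmga2 and the Arf start were not called. Cdkn1a is a cyclin-dependent kinase inhibitor too, so the calls do not mark out that class. The threshold also parted near values, as Cdkn1b was called at limma FDR 0.00982. Ccng1, Mdm2, Arf and Hmga2 were not called, at limma FDR 0.0205 to 0.0419. At an unadjusted p under 0.05, 8 of the 11 were lower and 0 higher, where 46.2% of all promoter peaks were lower and 3.26% higher. The promoter peaks rested on between 81 and 1010 reads per library.

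**Figure D1:**
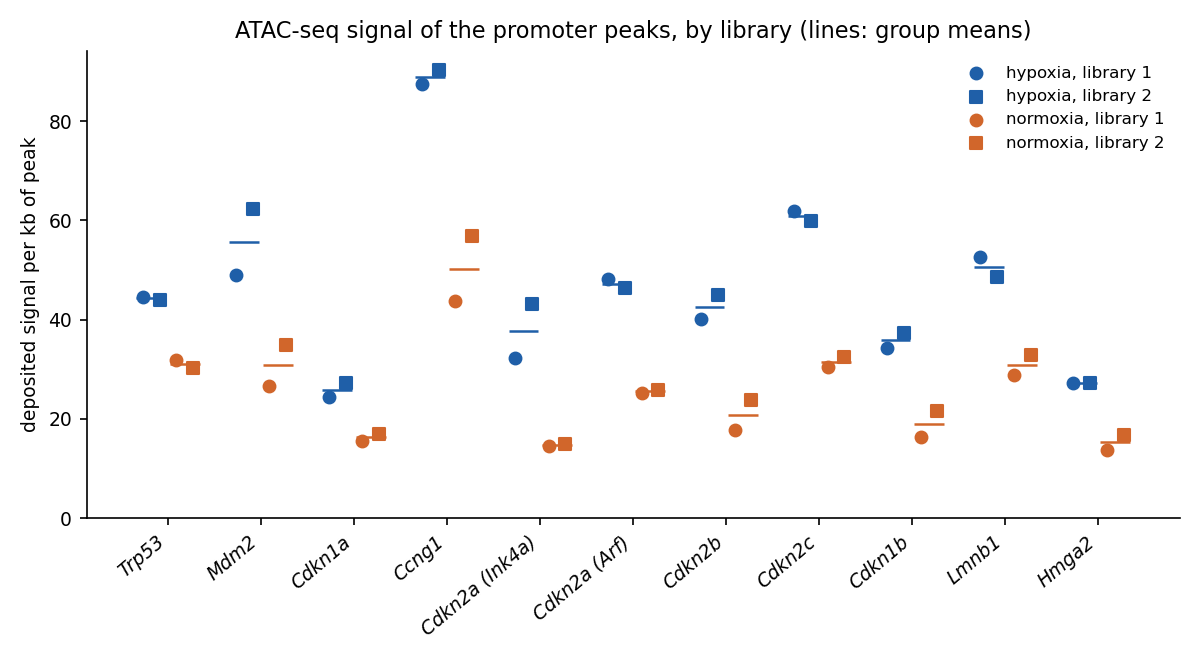
Deposited ATAC-seq signal per kb of peak (y axis) for the 11 promoter peaks (x axis), with 1 point per library and short lines for the group means of 2 libraries. In every peak both normoxia points lie below both hypoxia points, and the highest values are those of Ccng1 at 87.4 and 90.4 per kb in hypoxia against 43.7 and 56.8 per kb in normoxia.

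At the top of the pathway, the Trp53 promoter peak (chr11:69578301-69582300, gene at chr11:69580359-69591873) also covers the start of Wrap53, a divergent gene that overlaps the p53 start, and the reads of the pair cannot be told apart. Its signal was 178 and 176 in hypoxia, against 127 and 121 in normoxia. The groups did not overlap, but the ratio of means, 0.701, was the highest of the 11 promoter peaks. After RLE scaling the log2 fold change was -0.03 (SE 0.12, limma FDR 0.883), above that of 77.9% of all promoter peaks. The sign was positive under equal total, quantile and loess scaling (0.26 to 0.30), so no direction is given for Trp53. No other peak lay in the Trp53 span.

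Mdm2 (chr10:117688875-117710758, minus strand) was the single gene of the 10 with peaks called higher. Its promoter peak held 196 and 249 in hypoxia, against 107 and 140 in normoxia, a log2 fold change of -0.37 ± 0.12 (SE), at limma FDR 0.0317, which was not called. Wide peaks of low density covered the gene body and a stretch past its end, and 3 of these were called higher. They were the 5600-bp peak at chr10:117702401-117708000, the 8400-bp peak at chr10:117693901-117702300 with the intron 6 site shown above, and the 17200-bp peak at chr10:117676201-117693400 with the site past the gene end. The last of these lies mostly past the end of Mdm2 and overlaps Cpm, a carboxypeptidase gene. The 3 peaks lie side by side within a stretch of 31800 bp.

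The 17200-bp peak held 264 and 280 in hypoxia, against 294 and 333 in normoxia. The 8400-bp peak held 72.9 and 87.4 in hypoxia, against 92.6 and 94.8 in normoxia. The 5600-bp peak held 49.5 and 59.5 in hypoxia, against 61.5 and 75.8 in normoxia. Both normoxia libraries lay above both hypoxia libraries in all 3 as deposited, a pattern seen in 7.75% of the other peaks of the series and in 3.4% of those at least 5 kb wide and under 20 per kb. The log2 fold changes after RLE scaling were 0.68 (SE 0.10, limma FDR 2.53e-05), 0.70 (SE 0.13, limma FDR 0.000601) and 0.80 (SE 0.15, limma FDR 0.000497), in the same order.

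Among all other peaks, 1.97% were called higher and 2.66% lower. Wide other peaks of at least 5 kb were called higher in 3.54% and lower in 11.9% of cases. The shares were 5.18% and 2.22% where their density was under 20 per kb, as it was for these 3 peaks, whose group means ran from 9.54 to 18.2 per kb. The calls held under equal total, quantile and loess scaling (log2 fold changes 0.93 to 1.11). On the deposited scale the same peaks were higher by 0.20 to 0.32 on the log2 scale and were not called, with limma FDR values from 0.173 to 0.346. The remaining Mdm2 peak, of 100 bp, held 0 and 7 reads in hypoxia and 1 and 0 in normoxia.

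Comparison within a library removes a scale factor common to all its peaks. It does not remove the difference in the share of reads in nuclear peaks, 49.2% and 53.2% in hypoxia against 31.0% and 35.2% in normoxia. Whether that share moved wide peaks of low density relative to dense promoter peaks was not tested. The 3 wide Mdm2 peaks together held 1.97 and 1.71 times the signal of the promoter peak in hypoxia and 4.20 and 3.60 times in normoxia. Against the 24 peaks within 100 kb on either side, the same sum was 0.485 and 0.512 in hypoxia, against 0.961 and 1.01 in normoxia. None of these neighbours was called by limma in either direction, against 4.57% called lower and 1.77% called higher of all peaks. In none did both normoxia libraries exceed both hypoxia libraries as deposited, against 6.94% of all peaks. Shares this low make 0 of 24 unremarkable, and the neighbours were not matched for width or density. Their median log2 fold change was -0.23. As a share of the locus, the Mdm2 promoter peak went from 33.7% and 36.7% to 19.2% and 21.7%. With 2 libraries against 2, the exact permutation test gave p = 0.333 (two-sided) for each ratio, the smallest value the design allows. The ratios were chosen after the peak values were seen.

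**Figure D2:**
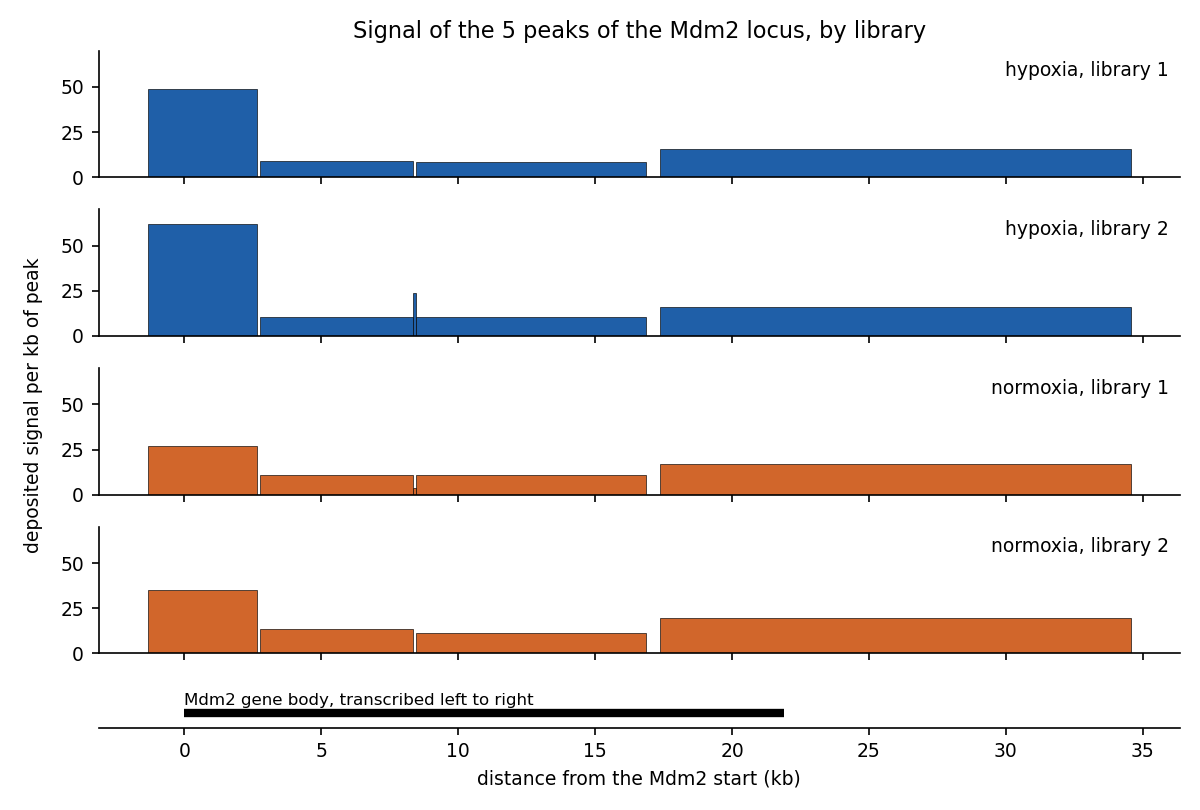
Deposited signal per kb (y axis) of the 5 Mdm2 peaks in each library against distance from the Mdm2 start in kb (x axis), with bar width equal to peak width and the gene body as a black bar. The promoter bar is shorter in both normoxia libraries (26.7 and 35.0 per kb against 49.0 and 62.2), while the 3 wide bars are slightly taller, and the thin bar near 8 kb is the 100-bp peak of few reads.

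Neither p53 target had a called peak after RLE scaling, although both promoter peaks were called lower as deposited (Cdkn1a -0.66 at limma FDR 0.000914, Ccng1 -0.83 at limma FDR 4.69e-05). Cdkn1a (p21, chr17:29090976-29100727) lay under a single 11000-bp peak that covered the whole gene and the p53 match shown upstream of it. Its signal was 269 and 299 in hypoxia, against 172 and 186 in normoxia, with no overlap between the groups. The log2 fold change of -0.19 ± 0.10 (SE), at limma FDR 0.228, was not called, and it turned to 0.10, 0.18 and 0.20 under equal total, quantile and loess scaling. Ccng1 (cyclin G1, chr11:40748552-40755311) had the densest promoter peak of the 10 genes. Both of its matches shown above lie there, as the scan covered peaks only. It held 332 and 343 in hypoxia, against 166 and 216 in normoxia, a log2 fold change of -0.35 ± 0.11 (SE), at limma FDR 0.0205, that was not called and was near 0 under quantile and loess scaling (0.02 and 0.05). The peak at its 3′ end differed by 0.04 (SE 0.17, limma FDR 0.915).

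Of the 4 promoter peaks called lower, 3 belonged to INK4 genes. Cdkn2a (chr4:89274471-89294653, minus strand) has a promoter peak at each start, of which the Ink4a one was called. The Ink4a peak (chr4:89281301-89283400) held 67.9 and 90.4 in hypoxia, against 30.4 and 31.4 in normoxia. The log2 fold change of -0.85 ± 0.16 (SE), at limma FDR 0.000573, was lower than that of all but 5.05% of promoter peaks. It was the only promoter peak of the 11 called lower under loess scaling (-0.73, limma FDR 0.00347) and quantile scaling (-0.74, limma FDR 0.00795), and it was not called at equal total (-0.56, limma FDR 0.014). The Arf peak (chr4:89293801-89296500) held 129.9 and 125 in hypoxia, against 68.2 and 69.7 in normoxia, a log2 fold change of -0.40 ± 0.13 (SE), at limma FDR 0.034, that was not called.

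Within each library, the Ink4a peak held 0.523 and 0.723 of the Arf peak in hypoxia and 0.445 and 0.450 in normoxia. Both normoxia ratios were lower, but the spread between the hypoxia libraries exceeded the gap, and the exact permutation p of 0.333 is the floor of the design. A difference between both starts was therefore not shown. The sequences of the 2 promoters, from 250 bases before to 50 after each start, differ in composition. They are given from the RefSeq promoter table of build GRCm38.p6, 5′ to 3′ on the minus strand, with CpG pairs in capitals.
Ink4a promoter, chr4:89282143-89282442: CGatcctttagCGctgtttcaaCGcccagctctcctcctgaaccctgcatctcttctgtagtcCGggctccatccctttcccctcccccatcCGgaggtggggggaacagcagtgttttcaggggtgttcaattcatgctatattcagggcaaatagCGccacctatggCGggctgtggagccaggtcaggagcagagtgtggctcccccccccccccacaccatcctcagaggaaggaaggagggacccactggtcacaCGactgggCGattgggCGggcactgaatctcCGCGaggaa
Arf promoter, chr4:89294570-89294869: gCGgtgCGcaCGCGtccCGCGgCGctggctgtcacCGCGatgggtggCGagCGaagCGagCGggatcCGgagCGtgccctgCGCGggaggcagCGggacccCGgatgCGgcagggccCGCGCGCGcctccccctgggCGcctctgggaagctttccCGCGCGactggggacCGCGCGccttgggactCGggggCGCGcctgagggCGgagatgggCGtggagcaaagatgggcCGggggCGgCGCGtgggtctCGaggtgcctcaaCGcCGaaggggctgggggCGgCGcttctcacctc

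The Ink4a promoter held 12 CpG and 60.3% G and C, and the Arf promoter 45 CpG and 77% G and C, against a median of 7 CpG over 32851 promoters. The E2F motif (TTTGGCGC or TTTCCCGC, both strands) occurred 1 time in the Arf promoter and not in the Ink4a window, and in 1.56% of all promoters. The core of the hypoxia response element (ACGTG or GCGTG, both strands) occurred 4 times in the Arf promoter and not in the Ink4a window. It was present in 43.8% of all promoters.

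Cdkn2b (p15, chr4:89306299-89311039), the neighbour of Cdkn2a and a further inhibitor of Cdk4 and Cdk6, had a promoter peak that fell as well. It held 196 and 220 in hypoxia, against 87.3 and 116 in normoxia, a log2 fold change of -0.56 ± 0.12 (SE), at limma FDR 0.00182. A 300-bp peak downstream of the gene (chr4:89303301-89303600) fell further, from 10.97 and 10.2 to 1.87 and 1.001 (log2 fold change -1.91, SE 0.40, limma FDR 0.00147), and was called lower under each of the 5 scalings. It rested on 31 and 30 reads in hypoxia and 5 and 3 in normoxia. The peak caller gave this peak to hypoxia only. A low normoxia value thus went with its selection, and its calls are no independent support for a fall. Cdkn2c (p18, chr4:109660876-109667189) held 253 and 245 in its promoter peak in hypoxia and 124 and 133 in normoxia, a log2 fold change of -0.47 ± 0.11 (SE), at limma FDR 0.00401. Neither promoter peak was called under equal total, quantile or loess scaling. The 2 other peaks of Cdkn2c were not called.

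Cdkn1b (p27, chr6:134920401-134925513), an inhibitor of cyclin E and Cdk2, fell at the promoter and beyond its end. The promoter peak held 199 and 217 in hypoxia, against 94.4 and 125 in normoxia, a log2 fold change of -0.45 ± 0.12 (SE), at limma FDR 0.00982. The 8000-bp peak past the gene (chr6:134925801-134933800) covers the long noncoding RNA Lockd, known as a neighbour whose locus enhances Cdkn1b. It held 243 and 264 in hypoxia, against 112 and 132 in normoxia, a log2 fold change of -0.58 ± 0.11 (SE), at limma FDR 0.000674. Neither was called under equal total, quantile or loess scaling, although the sign was kept.

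Lmnb1 (lamin B1, chr18:56707813-56753424) had 10 peaks, none of them called by limma. Its promoter peak held 168 and 156 in hypoxia, against 92.6 and 105 in normoxia, with no overlap, and a log2 fold change of -0.23 ± 0.12 (SE), at limma FDR 0.206, which is close to the median of all promoter peaks. The 9 other peaks ran from -0.29 to 0.97 on the log2 scale. The strongest of them, a 12900-bp peak past the gene end that also overlaps March3, held 406 and 437 in hypoxia, against 249 and 292 in normoxia, a log2 fold change of -0.16 ± 0.09 (SE), at limma FDR 0.253. Both the promoter peak and this peak turned positive under equal total, quantile and loess scaling. At an unadjusted p under 0.05, 3 of the 10 peaks differed, all of them small other peaks with positive log2 fold changes (0.67, 0.80 and 0.97), where 13.9% of all other peaks were higher and 12.5% lower at that p.

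Hmga2 (chr10:120361275-120476469, minus strand) had the most peaks, with 12 of its 14 in introns. Its strongest peak, 14000 bp wide (chr10:120420501-120434500), held 652 and 735 in hypoxia, against 365 and 425 in normoxia. The log2 fold change was -0.33 (SE 0.09, limma FDR 0.00773), but it was 0.04 and 0.18 under quantile and loess scaling, so its direction depends on the scaling. A 1900-bp intron peak (chr10:120460701-120462600) fell from 71.8 and 70.04 to 25.9 and 35.0 (log2 fold change -0.74, SE 0.16, limma FDR 0.00252) and stayed negative under each scaling, but was not called at equal total (limma FDR 0.0443), quantile (limma FDR 0.0201) or loess scaling (limma FDR 0.0126). The promoter peak, at 171 in both hypoxia libraries and 86.6 and 106 in normoxia, had a log2 fold change of -0.36 ± 0.12 (SE), at limma FDR 0.0419, and was not called.

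Over the 42 other peaks of the 10 genes, 4 were called lower and 3 higher by limma, all 3 at Mdm2, against 2.66% lower and 1.97% higher over all other peaks. The 3 higher peaks lie side by side within 31800 bp, so they are not 3 separate loci. The median log2 fold change of the 42 was -0.24, against 0.05 over all 111684 other peaks. On the deposited scale, both normoxia values lay below both hypoxia values in 29 of 42, against 55.4% of all other peaks, and above in 5, against 7.75%. In the peak caller's own assignment, 9 of the 42 belonged to hypoxia only, of which 4 were at Cdkn2b and 2 at Hmga2, against 6.9% of all other peaks. These 9 were at most 800 bp wide and held 0 to 34 reads per library. Their log2 fold changes were all negative, with a median of -1.14, and they made up 6 of the 29 peaks above. Since a low normoxia value went with that assignment, they pull down the median of the 42 by selection. Of these 9 peaks, 1 was called lower, the 300-bp Cdkn2b peak, where 7.76% of all such other peaks were.

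**Figure D3:**
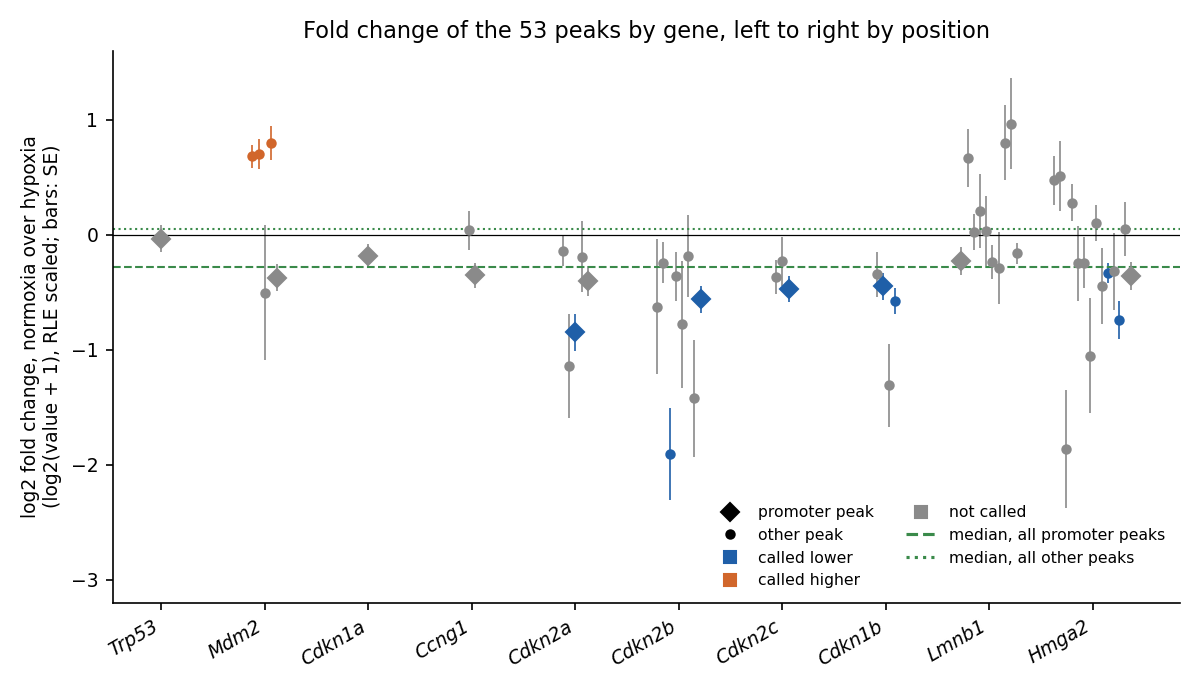
Log2 fold change of normoxia over hypoxia after RLE scaling, with SE (y axis), for the 53 peaks grouped by gene (x axis) and drawn left to right by position, with promoter peaks as diamonds and called peaks in colour. The 3 peaks called higher, at 0.68 to 0.80, all lie at Mdm2, and the 8 called lower lie at Cdkn2a, Cdkn2b, Cdkn2c, Cdkn1b and Hmga2.

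Summed by gene on the deposited scale, the promoter total was lower in normoxia without overlap in 10 of 10 genes, as it was in 91.7% of all protein-coding genes with a promoter peak. The sum over other peaks was lower in 7 of the 8 genes that had any and higher in 1, Mdm2. At Mdm2 it was 386 and 429 in hypoxia, against 449 and 504 in normoxia, most of it in the 17200-bp peak. Over all protein-coding genes with other peaks the shares were 75.5% lower and 3.78% higher. The promoter share of the locus signal was lower without overlap in 5 of 8 genes, higher in 1 and overlapping in 2, against 54.2% lower and 11.5% higher over all protein-coding genes with both kinds of peak. The gene with a higher share was Cdkn1b, at 40.59% and 40.56% in hypoxia and 41.5% and 43.6% in normoxia. At Cdkn2a it went from 62.5% and 63.5% to 58.2% and 55.3%. For each total the exact permutation p was 0.333, which Benjamini-Hochberg adjustment left as it was, and for the shares without overlap it was 0.333 before and 0.444 after adjustment. That p is the smallest an exact permutation test of 2 against 2 can give.

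The number of calls depended on how the libraries were scaled. In the hypoxia libraries 49.2% and 53.2% of all reads lay in nuclear peaks, and 31.0% and 35.2% in normoxia, so that the scale sets the level of all peaks. With values as deposited, 25 of the 53 peaks were called lower and 0 higher, against 24% and 0.391% of all peaks, where the median over all peaks was -0.44. The 25 were 10 promoter and 15 other peaks, and the shares over the series were 63.2% and 18.2%. With loess scaling, 2 were called lower and 3 higher, against 1.31% and 1.42%. Of these, 1 was a promoter peak, where 2.06% of promoter peaks were lower and 1.17% higher, and 4 were other peaks, against 1.2% lower and 1.46% higher. Calls also needed both hypoxia libraries. Without either of them limma called 0 of the 128055 peaks, although 23272 and 23628 had an unadjusted p under 0.05 (edgeR was not rerun on these subsets), and the lowest FDR among the 11 called peaks was 0.207 without the first and 0.189 without the second, while all 11 kept their direction. Without the first normoxia library, 5 of the 8 lower calls and all 3 higher calls remained, the Cdkn1b promoter reaching limma FDR 0.0715, the Cdkn2b promoter 0.0138 and the 1900-bp Hmga2 peak 0.0337.

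**Figure D4:**
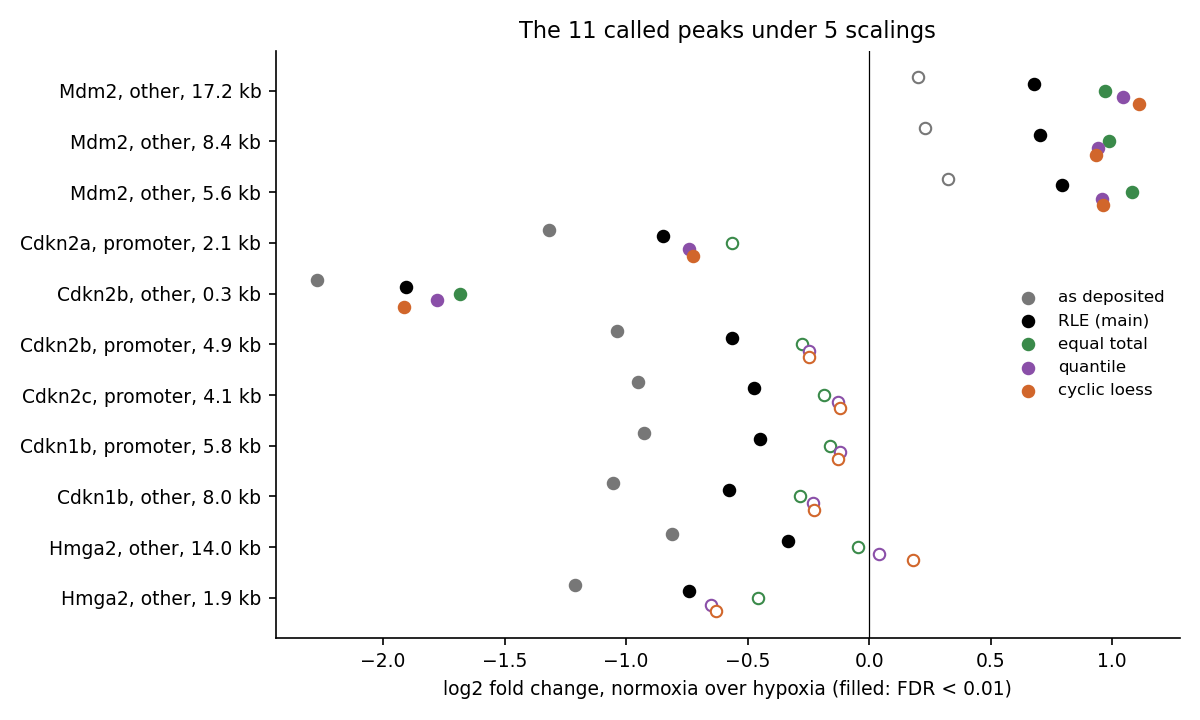
Log2 fold change of the 11 called peaks (x axis, 1 peak per row) under 5 scalings of the same 4 libraries, with filled points at limma FDR under 0.01. Of the peaks called lower, all but the 14000-bp Hmga2 peak lie left of 0 under every scaling, and the 3 Mdm2 peaks lie right of 0. The 14000-bp Hmga2 peak runs from -0.81 to 0.18. The peak caller gave the 300-bp Cdkn2b peak to hypoxia only, so a low normoxia value went with its selection.

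The wider pathways were followed through lists of 78 further genes with promoter peaks, among them Wrap53, which shares the Trp53 promoter peak. Of their 96 promoter peaks, 22 were called lower and 0 higher by limma, or 22.9%, against 17.6% of all promoter peaks, and their median log2 fold change was -0.33. At an unadjusted p under 0.05, 1 was higher, against 3.26% of all promoter peaks. The Rb axis of cyclins, kinases and E2F factors held 8 of 20 lower, among them Ccnd2 (-0.65), Rbl2 (-0.60), Cdk2 (-0.67) and Ccne1 (-0.52). Of 32 promoter peaks of p53 targets 5 were lower, with Bbc3 (Puma, -0.62), Ccng2 (-0.52), Plk2 (-0.58) and Polk (-0.52) the strongest by p-value. Regulators of p53 held 2 of 14 lower, Rchy1 (-0.58) and Cop1 (-0.63), both ubiquitin ligases that act on p53.

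Polycomb genes and others known to govern Ink4a held 3 of 17 lower, or 17.6%, the same share as over all promoter peaks. They were Bmi1 (-0.74), Ezh2 (-0.45) and Eed (-0.52), subunits of Polycomb complexes, and under loess scaling 1 of them, Bmi1, was called. The lamina and high mobility group list held 4 of 13 lower, namely Hmga1 (-1.63), Lmna (-0.46), Hmgb2 (-0.54) and Tmpo (-0.58). These values are log2 fold changes. Outside promoters, 17 of 280 peaks of the 5 lists were lower, or 6.07%, and 5 higher, against 2.66% and 1.97% of all other peaks. Of the lower ones, 9 were among the 63 such peaks of the lamina and high mobility group list. The 5 higher calls, about as frequent as in the series, were at Bcl2l1 (1.04), Tnfrsf10b (0.98), Rb1 (1.45), Ezh2 (1.12) and Cop1 (1.11). Under loess scaling the promoter calls of the lists were 2 lower and 4 higher, against 2.06% lower and 1.17% higher over all promoter peaks. The 4 higher calls were at Phlda3 (0.47), Btg2 (0.42), Plk3 (0.29) and Ccnd1 (0.52). In the lists of the Rb axis, p53 targets and p53 regulators, 0 promoter peaks were called lower under loess scaling. The absence of higher calls among the promoter peaks of the lists therefore depends on the scaling.

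Marker genes were read beside these results. Promoter peaks were present at 8 of 8 MSC markers, at 1 of 6 blood markers (Csf1r) and at 3 of 4 endothelial markers (Pecam1, Kdr and Tek). Of 10 MSC promoter peaks 3 were called lower, against 17.6% of all promoter peaks, and these were at Cd44, Col1a1 and Ly6a (Sca-1, a marker of the sort, called at 1 of its 3 peaks with -1.60 at limma FDR 0.00291). Summed over promoter peaks, the MSC list gave 2076 and 2237 in hypoxia, against 1163 and 1257 in normoxia. The blood list gave 94.5 and 103 in hypoxia against 73.1 and 71.4 in normoxia, and the endothelial list 86.3 and 87.7 against 52.1 and 69.4. Away from promoters 2 of 17 peaks of the blood list were called higher, at Ptprc and Spi1, and none lower. In the endothelial list 1 of 30 was higher (Tek) and 1 lower (Pecam1), and in the MSC list 2 of 57 were lower (Cd44 and Prrx1) and none higher, where 1.97% of all other peaks were called higher and 2.66% lower. Mitochondrial peaks held 7.77% and 9.13% of reads in hypoxia and 1.497% and 2.34% in normoxia. Their part in the results was not tested.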

How the data were processed

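ATAC-seq signal per peak was analysed for 4 libraries of mouse MSCs, 2 in hypoxia and 2 in normoxia. According to the methods and labels, the authors aligned reads to mm10 with Bowtie2, removed duplicates with Picard, and called 1 peak set over both groups with chromstaR. The deposited values, named RPKM by the authors, are a signal per peak not divided by width. Each was a whole multiple of 1 step (100% of values, tolerance 1e-06 reads), which gave the reads per peak and library totals of 26680936 to 29965523, with a median of 33 to 48 reads per peak.

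The 4 libraries were compared with limma 3.58.1 in R 4.3.3 (lmFit and eBayes, trend and robust options) applied to log2(value / RLE size factor + 1), two-sided, adjusting p after Benjamini-Hochberg across the 128055 peaks (FDR under 0.01). The study's methods used edgeR, which was run here (4.0.16, quasi-likelihood) on the recovered reads as an alternative. Size factors were 1.13 and 1.23 in hypoxia, against 0.81 and 0.89 in normoxia. The functions were tested on simulated data. Sums and ratios were compared by exact permutation. Promoters used the basic GENCODE M21 set.

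The genes, lists and rules were chosen with earlier results of these data known. Named were all promoter peaks, all called peaks and the strongest other peak of each of the 10 genes, and in the lists the 4 called promoter peaks with the lowest p. List peaks away from promoters, list calls under loess, and marker peaks were named after their values were seen. Within-library ratios, the wide-peak, unadjusted-p and all-gene backgrounds and the Mdm2 intron 1 pair were added after seeing the data. RefSeq promoters of GRCm38.p6 were matched for 9 of 10 genes (12 starts). Alternatives were 4 other scalings, pseudocounts of 0.1 and 5 in place of 1, an FDR under 0.05, eBayes lacking the trend and robust options, only peaks with a mean of at least 5, edgeR with RLE or TMM factors, a replicate block, promoters within 2 kb, gene bodies without flanks, and leaving out each library.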

Additional observations from a re-analysis of the deposited data

How the results depend on the processing

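Of the 53 peaks, 8 were called lower and 3 higher. The lower count was 25 as deposited, 1 at equal total, 2 with quantile or loess scaling, 14 at an FDR under 0.05, and 0 without trend and robust estimation, where the 3 higher calls also became 0, as they did as deposited. No peak of the whole table was called by limma without trend and robust estimation, although 29293 had an unadjusted p under 0.05, nor without a hypoxia library. Lower promoter calls (4) became 10, 0, 1, 1, 8 and 0 in the order as deposited, equal total, quantile, loess, FDR under 0.05 and no trend. Lower other calls (4) became 15, 1, 1, 1 and 0 as deposited, at equal total, with quantile, loess and no trend, and 2 in gene bodies without flanks. List promoter calls (22 lower) became 73, 3, 1, 2, 38 and 0, and higher ones (0) were 1, 2 and 4 at equal total, quantile and loess. Leaving out a library gave 0 to 10 lower and 0 to 3 higher calls in all, 0 to 6 lower among promoters, 0 to 4 lower and 0 to 3 higher among other peaks, and 0 to 38 lower in the lists. In those fits the lone library of a group is assumed to vary like the others. edgeR kept 10 of the 11 called peaks.

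Signs turned at equal total, quantile and loess scaling, in that order, for the promoter peaks of Cdkn1a (0.10, 0.18, 0.20), Trp53 (0.26, 0.30, 0.29) and Lmnb1 (0.057, 0.076, 0.063), the 12900-bp peak past Lmnb1 (0.13, 0.20, 0.29) and the peak over the Cdkn2a end (0.15, 0.090, 0.085). They turned at equal total for the 1500-bp peak past Cdkn2b (0.040), and with quantile and loess for the Ccng1 promoter (0.021, 0.052) and the 14000-bp Hmga2 peak (0.042, 0.18). The Ccng1 3′ peak was -0.43 as deposited, and ran from -0.048 to 0.12 when a library was left out (-0.0036 without the first hypoxia, -0.048 without the first normoxia library). The Trp53 promoter ran from -0.13 to 0.065 likewise (0.033 without the first hypoxia, 0.065 without the second normoxia library). Over 23 named peaks, 267 of 368 values kept sign and call. The causes were not tested.

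Whether same-numbered libraries came from the same animals is not known, and they were not treated as pairs in the main fit. According to the paper, the sorted cells were divided between low oxygen and normoxia, so pairing is possible. The correlation of deviations between same-numbered libraries was 0.011, which cannot decide this with 2 libraries per group. With the replicate block, 10 peaks were called lower and 3 higher, and the list calls were 28. Over the whole table the block gave 8468 lower and 3912 higher calls, against 5856 and 2262 without it.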
